A study of Mus musculus with 258 samples.

Results

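The loops described here lie in the gene-poor domain of mouse chromosome 15 that holds Myc. They are all Hi-C loops, of resting and of activated B cells, with the first base of an anchor between 60000000 and 64500000 in the mm9 build. This rule found 12 loops among 6181: 3 of the 1866 loops of resting cells and 9 of the 4315 loops of activated cells. Myc was placed at about 61.82 Mb.

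Hi-C counts how often distant stretches of DNA are ligated to each other in fixed nuclei, and a loop is called where a pair of anchors is joined more often than its surroundings. The cells were B cells of wild-type C57BL6/J mice aged 6 to 8 weeks, taken from the spleen by removing the other cell types. The resting group was cells at 0 h, with 8 libraries. The activated group was cells cultured for 72 h with lipopolysaccharide at 50 µg/mL, IL-4 at 2.5 ng/mL and an antibody to CD180 (RP105) at 0.5 µg/mL, with 26 libraries. Each state entered as 1 list of loops. The lists name no library and the activated list no time, so 72 h and the use of all libraries were assumed. With 1 list a state, the values have no replicates and no p-value between states was computed. All intervals are 95% intervals that cover counting error alone. No expression value was used, so the cell type was not checked against marker genes.

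Myc is a transcription factor that drives growth and division, and B cells induce it when they are activated. Its neighbour Pvt1 gives a long non-coding RNA, and the domain is a known site of translocation and of distant enhancers in blood cells. Mammalian chromatin loops are mostly formed by cohesin, which extrudes DNA until it meets CTCF. In the RefSeq gene order of GRCm38.p6, Pvt1 is the gene directly after Myc. No protein-coding gene lies between A1bg and Myc on one side, or between Myc and Gsdmc, a gasdermin gene, on the other. "Downstream" below means the Pvt1 side of Myc, and "upstream" the A1bg side. No gene coordinate was used for Pvt1, so anchors are given by their distance from Myc and were not assigned to Pvt1 itself.

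The Myc locus was the main anchor of the domain in both states. Anchors within 10 kb of each other were merged, and the merged anchor at Myc ran from 61810001 to 61825000, across the position of the gene. All 3 resting loops ended there, 1 reaching upstream and 2 downstream. In activated cells 5 of the 9 loops ended there, 2 reaching upstream and 3 downstream. No loop of either state bridged Myc from one side to the other without an anchor at it.

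**Figure D1:**
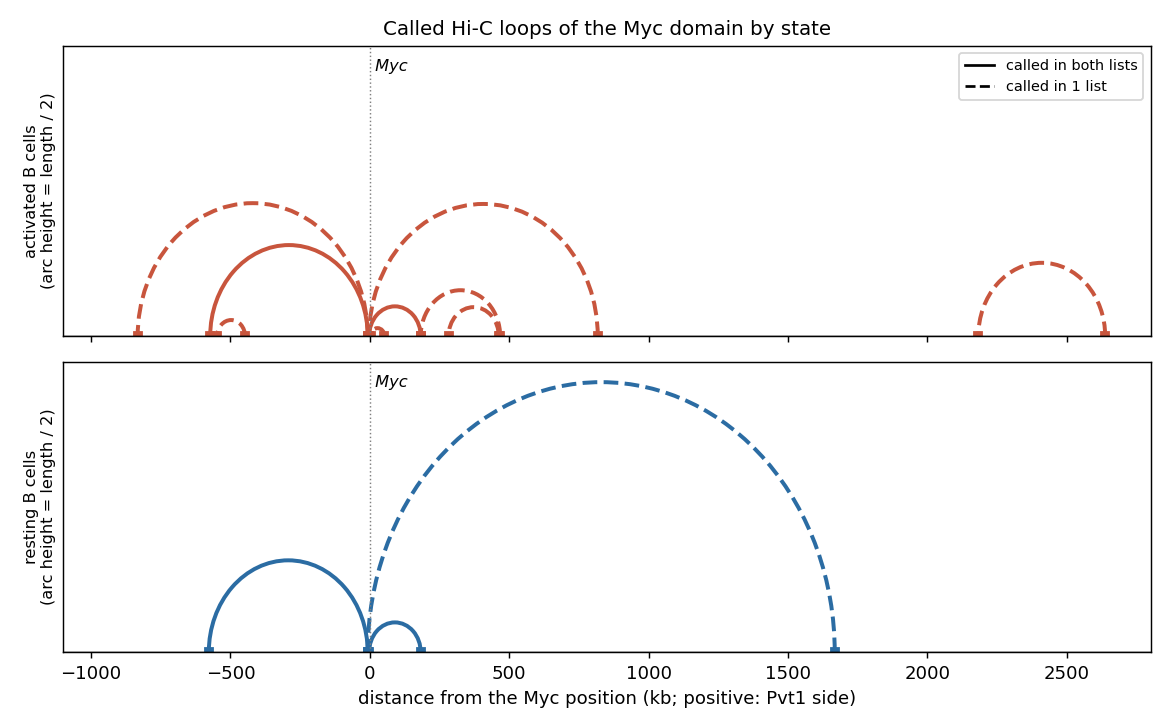
Loops of the Myc domain in activated (top, 9 loops) and resting (bottom, 3 loops) B cells, drawn as arcs between anchors placed by their distance from Myc in kb. Solid arcs were called in both lists and dashed arcs in 1 list. The 570 kb and 185 kb arcs at Myc recur in both states, and the longest arc, of 1675 kb, is in the resting list only.

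Loops reaching upstream from Myc differed between the lists by 1 loop. In resting cells the anchor at 61240001 to 61245000 was joined to 61810001 to 61815000, over 570 kb. It was seen in 39 contacts against 12.5 expected from the ring of pixels around it, the donut background. In activated cells the matching loop ran from 61245001 to 61250000 to the same Myc pixel, over 565 kb, with 41 contacts against 12.8 expected. Both ends of this pair lie within 5 kb, which is 1 pixel of the maps. The longer upstream loop was called in activated cells only. It joined 60985001 to 60990000 with Myc over 825 kb, in 37 contacts against 10.8 expected. The farthest upstream anchor tied to Myc thus lay at -577.5 kb in the resting list and at -832.5 kb in the activated list.

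Loops reaching downstream, to the Pvt1 side, differed more between the lists. The loop from 61815001 to 61820000 to the anchor at 62000001 to 62005000, 185 kb long, fell on the same pixel in both states. It had 57 contacts in resting and 69 in activated cells. A second downstream loop of activated cells was the shortest at Myc. It joined 61820001 to 61825000 with 61870001 to 61875000 over 50 kb, in 89 contacts against 37.5 expected, and rested on 1 enriched pixel. The third joined 61815001 to 61820000 with 62635001 to 62640000 over 820 kb, in 42 contacts against 10.6 expected, from 7 merged pixels. Neither of these was called in resting cells.

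The resting list held a much longer downstream loop of its own. It joined 61810001 to 61815000 with 63485001 to 63490000, over 1675 kb, in 28 contacts against 8.33 expected. It was the longest resting loop of chromosome 15, where the longest activated loop spanned 1190 kb, and 6 resting loops of the genome were longer. Its far anchor was used by no activated loop, and the nearest activated anchor lay 515 kb away. The farthest downstream anchor tied to Myc was therefore at 1667.5 kb in the resting list and at 817.5 kb in the activated list.

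This long resting loop was also among the least certain of its list. In the authors' deposited table its q-value was 0.0939 against the horizontal background, and only 2 resting loops had a higher highest q-value. Its strength, the ratio of observed to donut-expected contacts, was 3.36 and the lowest of the 26 resting loops over 1000 kb, whose median was 6.37, or 4.63 without chromosome Y. Scaled up by the depth ratio of the maps (1.55, given below), it would hold 43.5 contacts and pass the limits seen in the activated list. With the ratio of its own length class it would hold 34.8 contacts and pass as well. Scaling keeps its ratios, which all lay above the lowest of the activated list, and higher counts at the same ratio lower the Poisson p. Both passes were therefore fixed in advance and carry no information on activated cells. The contact count at this pixel in activated cells was not used here, so whether the contact was lost or only not called was not tested.

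**Figure D2:**
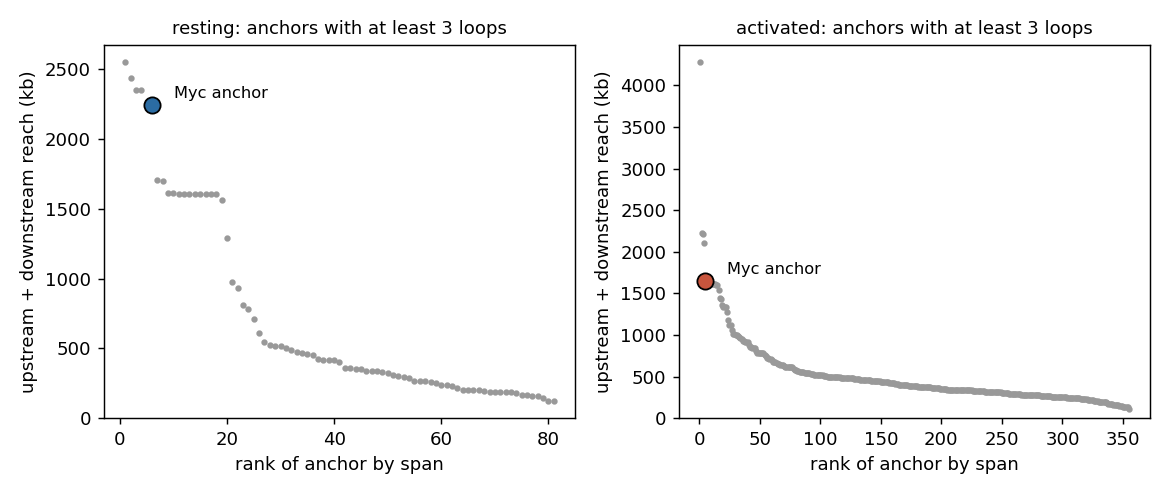
Span of every merged anchor with at least 3 loops, as its longest upstream plus longest downstream loop in kb, against the anchor's rank, for resting (left, 81 anchors) and activated (right, 355 anchors) cells. The Myc anchor, the large point, ranks 6 and 5.

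Few anchors of the lists had as many loops or as long a reach as the Myc anchor. In the resting list 2.60% of 3113 merged anchors (81) had at least 3 loops, the number at Myc, and 21 had more. In the activated list 0.291% of 6521 anchors (19) had at least 5 loops, the number at Myc, and 10 had more. Loops on both sides, as at Myc, were found at 5.69% of resting and 8.68% of activated anchors. The longest upstream and longest downstream loop at Myc together covered 2245 kb in resting cells, against a median of 405 kb over anchors with at least 3 loops. In activated cells they covered 1645 kb, against a median of 385 kb. These spans ranked 6 of 81 and 5 of 355, or 6 of 70 and 5 of 343 without chromosome Y, which both medians include. More loops can only widen a span. The anchors compared needed 3 loops, on 1 side or both, while Myc had 5 in activated cells and loops on both sides. The resting span rested on the 1675 kb loop: without it the span was 755 kb, and 23 other anchors had a longer one. Without its longest loop the activated span was 1385 kb, and 17 other anchors had a longer one. Only the Myc anchor lost a loop here, and some of the other anchors lie on chromosome Y. These counts are therefore not ranks among anchors treated alike. Myc was chosen for its known role, so these ranks are descriptions.

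A stricter q-value left fewer resting than activated loops at Myc. With every q-value at most 0.01 in the authors' deposited table, all 5 activated loops at Myc stayed and kept the span of 1645 kb. Of the 3 resting loops only the 185 kb loop stayed, 1 of 3 beside 65.5% of all resting loops, and 7 of the 9 activated loops of the domain did so, beside 74.2% of all activated loops. The highest q-value of the 570 kb resting loop was 0.0345 in the authors' deposited table, and that of its activated match was 0.00853. The strengths of this pair were alike, at 3.12 and 3.21, so passing the cut does not measure a difference in strength between states. The maps also differ in depth (given below), and a difference between states in the loops kept was not tested.

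The domain held more loops in the activated list, as did the genome. It had 3 times as many activated as resting loops (exact interval 0.749 to 17.2), the whole genome 2.31 times (2.19 to 2.44) and chromosome 15 as a whole 2.34 times (1.80 to 3.07). The interval of the domain includes no change and the value of the genome, so 12 loops could not show a difference from either. Among 535 autosomal windows of its length, 4.5 Mb, the median was 2 resting and 6 activated loops, and 338 and 342 windows held as many as the domain or fewer.

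Most loops of activated cells had no match in the resting list. A loop was counted in both lists where both anchors, each widened by 10 kb, met those of a loop in the other list. Of the 3 resting loops, 2 were in both lists (66.7%, exact interval 9.43 to 99.2), beside 65.2% of all resting loops. Of the 9 activated loops, 7 were called in activated cells only (77.8%), beside 71.7% of all activated loops. These shares are near those of the whole lists. With anchors not widened, the 570 kb pair no longer matched, and the shares in both lists were 33.3% of resting and 11.1% of activated loops.

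The activated list used anchors here that the resting list did not, at a share near that of the genome. The 12 loops rested on 13 merged anchors, of which 3 served both states, 9 activated cells only and 1 resting cells only. The 9 were 75.0% of the 12 activated anchors, beside 64.5% of all 6521 activated anchors. The 3 shared anchors were Myc itself, the one 575 kb upstream and the one 182.5 kb downstream. Of the 7 loops called in activated cells only, 3 had neither anchor in the resting list (42.9%), beside 66.2% of all such loops. The other 4 each had 1 anchor in it, and that anchor was Myc for 3 of them and the 182.5 kb site for the other.

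The activated loops away from Myc were 4 in number, and none was called in resting cells. The first pair lay downstream and shared an anchor. From the 182.5 kb site, a loop of 285 kb ran on to 62285001 to 62290000, in 44 contacts against 15.8 expected. A loop of 180 kb joined 62100001 to 62105000 with the adjoining pixel, 62280001 to 62285000, in 61 contacts against 25.7 expected. Myc, the 182.5 kb site and the site 465 kb downstream were thus linked stepwise in activated cells, and no direct loop from Myc to the last of them was called. In the authors' deposited table the 180 kb loop had a q-value of 0.0593 against the vertical background, the highest of the 9.

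The other two activated loops without a Myc anchor lay farther apart. One was upstream, 100 kb long, from 61270001 to 61275000 to 61370001 to 61375000, in 77 contacts against 33.9 expected. Its left anchor lay close to the upstream partner of Myc but was not merged with it. It lay inside the 565 kb loop, and its ratio of 2.27 was the lowest of the domain. The other joined 64000001 to 64005000 with 64455001 to 64460000 over 455 kb, in 49 contacts against 13.7 expected. It began 2182.5 kb downstream of Myc and shared no anchor with any other loop of the domain. Its ratio depended on the background used: 3.59 against the donut, 5.14 against the lower left and 2.03 against the vertical one.

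The strength of the loops ran from 2.27 to 3.97 among members, with wide counting intervals. The 3 resting loops had ratios of 3.12 (interval 2.22 to 4.27) for the 570 kb loop, 3.36 (2.23 to 4.86) for the 1675 kb loop and 3.11 (2.36 to 4.03) for the 185 kb loop. Among activated loops the 820 kb downstream loop was the strongest, at 3.97 (2.86 to 5.36). The 455 kb loop followed at 3.59 (2.66 to 4.75), then the 825 kb upstream loop at 3.43 (2.42 to 4.73). The weakest at Myc was the 50 kb loop, at 2.37 (1.91 to 2.92). Neighbours in this order have overlapping intervals, and the interval of the strongest loop overlaps all others save the 100 kb loop, at 2.27 (1.79 to 2.84). Overlap of intervals does not show equal strength, and differences between members were not tested.

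**Figure D3:**
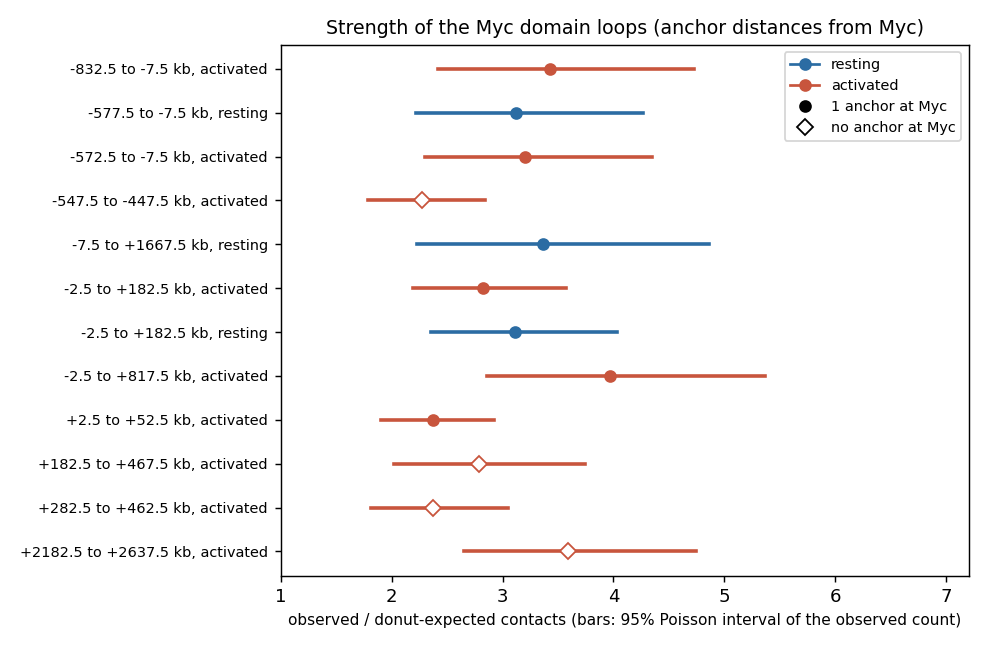
Ratio of observed to donut-expected contacts for each of the 12 loops, ordered by the left anchor's distance from Myc, with 95% Poisson intervals of the observed count. Filled circles have an anchor at Myc and open diamonds have none. The points lie between 2.27 and 3.97, and the intervals of the 2 loops called in both states overlap between states.

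At the loops called in both states, the ratio was not distinguishable between resting and activated cells. For the 570 kb pair it went from 3.12 to 3.21, a log2 difference of 0.04 (SE 0.32, interval -0.59 to 0.67). For the 185 kb pair it went from 3.11 to 2.82, a log2 difference of -0.14 (SE 0.26, interval -0.65 to 0.36). Over all 1212 matched pairs of the lists the median difference was 0.05. For the 185 kb pair all 4 backgrounds gave a value below 0, down to -0.42 with the horizontal one. For the 570 kb pair the vertical background alone gave a value below 0. The intervals allow changes of moderate size in either direction. Loops called in 1 list have no ratio in the other. The comparison therefore covers only contacts enriched enough to be called in both states, which favours small differences.

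The contact counts themselves rose less at these pairs than at most. The activated map was deeper: over the 1212 matched pairs the donut-expected count was a median of 1.55 times the resting one, and the observed count 1.60 times. At the 570 kb pair the observed count was 1.05 times the resting one (exact interval 0.661 to 1.67), and only 91 of the 1212 pairs were at or below this value. The expected count there was 1.02 times the resting one, so the loop and its surroundings moved alike. At the 185 kb pair the observed count was 1.21 times (0.840 to 1.75) and the expected count 1.34 times the resting one. The intervals of both observed ratios include the median of 1.60, so counting error alone allows a usual rise at either pair. The depth ratio also fell with length over the whole lists, from 1.64 at loops up to 50 kb to 1.24 at loops of 500 to 1000 kb. The first pair belongs to the latter class, in which 30 pairs were matched.

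Setting the activated loops to the resting depth dropped none of those in the domain. Observed and expected counts of activated loops were divided by 1.55, and a loop was kept if it passed the lowest ratios and highest Poisson p of the resting list. All 9 activated loops of the domain passed, beside 90.7% of all activated loops. Scaling keeps the ratios apart from rounding, and those of all 9 lay above the resting limits. Only the Poisson p could therefore have dropped them. All 7 called in activated cells only passed, beside 88.3% of all such loops. These shares are close to those of all loops. Divided by 1.55, the 825 kb, 820 kb and 50 kb loops at Myc would hold 23.8, 27.1 and 57.3 contacts. The ratio of the 500 to 1000 kb class was lower, at 1.24, so the 825 kb and 820 kb loops would hold more by it. With the ratio of each length class, all 9 loops and all 7 called in activated cells only passed as well. The limits were read from the list and are no substitute for the authors' caller, so whether these contacts rose or were missed in resting cells was not tested.

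**Figure D4:**
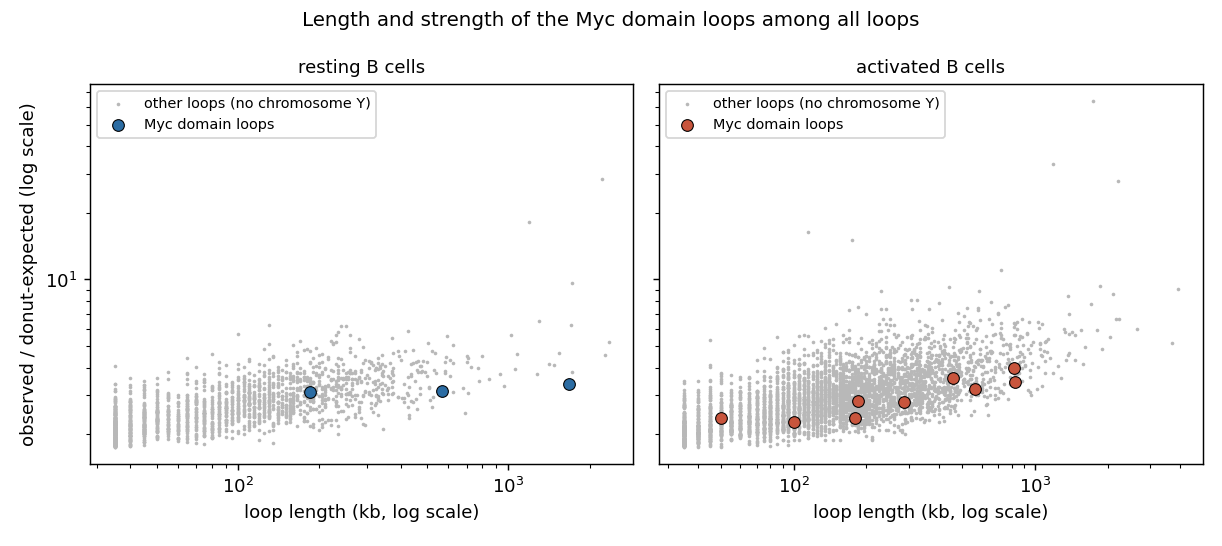
Ratio of observed to donut-expected contacts against loop length in kb, both on log scales, for resting (left) and activated (right) cells. Large points are the loops of the Myc domain (3 and 9) and small points the other loops without chromosome Y. The loops of the domain are long for their lists by median, though not each of them. Those of the domain over 500 kb lie below the median strength of their length class.

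The loops of the domain were long for their lists but not strong for their length. Their median length was 570 kb (185 to 1675) in resting cells, beside 90 kb over all resting loops, and 285 kb (50 to 825) in activated cells, beside 140 kb. Their median ratio was 3.12 in resting and 2.82 in activated cells, beside 2.63 and 2.84 over all loops. Longer loops had higher ratios throughout both lists, so each loop was set beside its own length class. Among activated loops of 500 to 1000 kb, of which there were 247 with a median of 4.25, the 820 kb loop stood at the 38.5 percentile, the 825 kb loop at 20.7 and the 565 kb loop at 13.4. In resting cells the 570 kb loop stood at the 15.4 percentile of 39, whose median was 3.99. Under 500 kb the members were spread over their classes. The 180 kb activated loop stood at the 14.7 percentile, the 285 kb loop at 21.7, the 100 kb loop at 33.7 and the 185 kb loop at 45.4. Above the median of their classes were the 455 kb activated loop at 60.5, the 185 kb resting loop at 64.3 and the 50 kb activated loop at 75.4.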

How the data were processed

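Hi-C reads were processed with BWA and Juicer on mm9, per the submitters' processing notes (versions and loop caller: not given in the sources used here). For each state the authors deposited 1 loop list, not 1 per library. The activated list's name gives no time, so the 72 h state was assumed, since the deposited description of the maps names no other activated state free of deletion or inhibitor. Per the file headers, each loop has observed contact counts, which were whole numbers and not normalized, and expected counts, a local background on the same scale, from 4 neighbourhoods. The authors' q-values in the deposited lists were used as given. Pixels were 5 kb. Not analysed here were 59 other Hi-C libraries and the 165 libraries made with other assays.

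Members were found by position. Anchors within 10 kb were merged, and an anchor within 50 kb of 61.82 Mb was taken as at Myc. Strength was observed over donut-expected contacts, with exact Poisson intervals, exact Clopper-Pearson intervals for shares and exact conditional binomial intervals for ratios. Library totals are not used here, so depth was compared through expected counts at matched loops. Matching and the depth ratio were tested on simulated data (Python 3.11.15, numpy 2.4.6, pandas 2.3.3, scipy 1.17.1). The comparison of scaled loops with the limits of a list was not. The simulation used the same depth ratio for all loops and anchor shifts within the matching distance. It thus checked the calculation alone, not a depth ratio that varies with length. All loops of the domain were counted; those at Myc, the longest and the strongest are described one by one. The members and lists were chosen with earlier results of these data known. Alternatives were other backgrounds, a stricter q-value, other matching and merging distances, and depth by length class, the last chosen after seeing the data. No mm9 sequence or gene annotation was used.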

Additional observations from a re-analysis of the deposited data

How the results depend on the processing

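With all q-values at most 0.01 in the authors' deposited table, 1 resting loop was left, and the ratio of activated to resting loops went from 3 to 7. The share in both lists became 100% of resting and 14.3% of activated loops, and the median length 185 kb in resting and 455 kb in activated cells. With anchors not widened, 33.3% of resting and 11.1% of activated loops were in both lists. Over the other backgrounds, the log2 strength difference of the 570 kb pair ran from -0.24 to 0.26 and that of the 185 kb pair from -0.42 to -0.15. Taken at the 2 matched pairs of the domain, the depth ratio was 1.18, against 1.55 over all shared pairs. Of 60 alternative values over 20 results, 55 lay within the counting intervals or count limits. Those intervals and limits are wide with 3 and 9 loops and include most of the changes above. Some of the 55 could not move, such as the number and length of resting loops when only the activated list was scaled. Variation between animals or libraries could not be measured. No paired analysis was possible because each state has 1 pooled list.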

Other observations

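The loops that flank the domain were called in both states. The nearest loop upstream of the window ended at -2127.5 kb from Myc in the resting list and at -2122.5 kb in the activated list, with 42 and 77 contacts and ratios of observed to donut-expected contacts of 3.81 and 4.07. The nearest loop downstream began 4682.5 kb after Myc, on the pixel 66500001 to 66505000 in both states, with 49 and 84 contacts and ratios of 3.01 and 3.55. No loop of either list had an anchor between these flanking loops and the window.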
